A study of Homo sapiens with 6 samples.

Results

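The genes of translation initiation described here are every row of the table whose symbol starts with EIF1 to EIF6, which covers the initiation factors, the subunits of eIF2B, the kinases of eIF2 and the eIF4E-binding proteins. Of 106 such symbols among 32692 genes, 45 pseudogenes and 2 antisense genes were left out by the rule, and 59 members remained. Those whose 6 libraries averaged 1 or more, 54 of 59, were compared between DMSO and OTI-611. The other 5 members, which lay under that minimum, were EIF3K, EIF4E3, EIF4EBP3 and the non-coding transcripts EIF2AK3-DT and EIF5-DT.

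DU145 is an established human prostate carcinoma line with no introduced genetic change named in the labels. One group of 3 libraries came from cells given 5 µM OTI-611 for 24 h and the other 3 from cells given the solvent DMSO for the same time. OTI-611 is known here only by this code, and the series title names the chromatin remodeller CHD1L as the target of the work. The labels do not say whether the 3 libraries of a group came from separate cultures, so the p-values below measure the spread between these libraries, which may be technical. Values are RPKM, reads scaled to gene length and to the total reads of the library, in 5 libraries, and DMSO 1 holds whole numbers only, which places its low values below those of DMSO 2 and DMSO 3. Estimated depths lay between 30.5 and 37.5 M reads for the 5 libraries that allowed an estimate. The epithelial keratin KRT18 had a mean of 99.3 RPKM with DMSO and 99.1 with OTI-611, and EPCAM had 13.9 and 13.8, whereas KRT8 had 149 and 105.0 and CDH1 4.40 and 1.54. The highest value of any leukocyte, fibroblast or endothelial marker measured was 0.180 RPKM, that of LYZ in OTI-611 1. KLK3, a target of the androgen receptor, was at most 0.0595 RPKM.

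Translation starts when eIF2, loaded with GTP and the initiator transfer RNA, joins the small ribosomal subunit together with eIF1, eIF1A, eIF3 and eIF5, while eIF4F (the cap-binding eIF4E, the scaffold eIF4G and the helicase eIF4A) brings the messenger RNA. Each round leaves eIF2 bound to GDP, and eIF2B reloads it with GTP. The 4 eIF2 kinases each answer a different stress by phosphorylating the alpha subunit of eIF2, which turns eIF2 into an inhibitor of eIF2B, lowers general initiation and lets the ATF4 message be translated. The eIF4E-binding proteins hold eIF4E away from eIF4G until the kinase mTORC1 phosphorylates them. Neither phosphorylation nor protein was measured in these libraries, so the values below are of RNA alone.

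Among the 54 tested members, 18 were higher with OTI-611 and 21 lower in limma at an adjusted p under 0.05, and 15 did not pass. Over all 11978 genes tested, 27.8% were higher and 37.3% lower, so the members' counts lie near the background and show nothing particular to them. For 19 members every OTI-611 library was above every DMSO library, and for 23 members below, beside 30.5% and 39.7% of all genes tested. The median log2 fold change of the members was -0.06, and that of all genes tested -0.05. Their median absolute log2 fold change was 0.25, against 0.27 for all genes. The members therefore moved in both directions, with a range from -0.80 for EIF4E2 to 0.79 for EIF4EBP1. After the libraries were rescaled to a common median gene, 23 members were higher and 18 lower, and after quantile normalization 22 and 20. The counts over all 11978 genes moved likewise. They were 3332 higher and 4473 lower in the main fit, 3986 and 3978 after rescaling, and 4085 and 4115 after quantile normalization. RPKM is relative to the total of its library, and in such bulk RNA fewer cells with a transcript and less of that transcript per cell cannot be told apart.

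**Figure D1:**
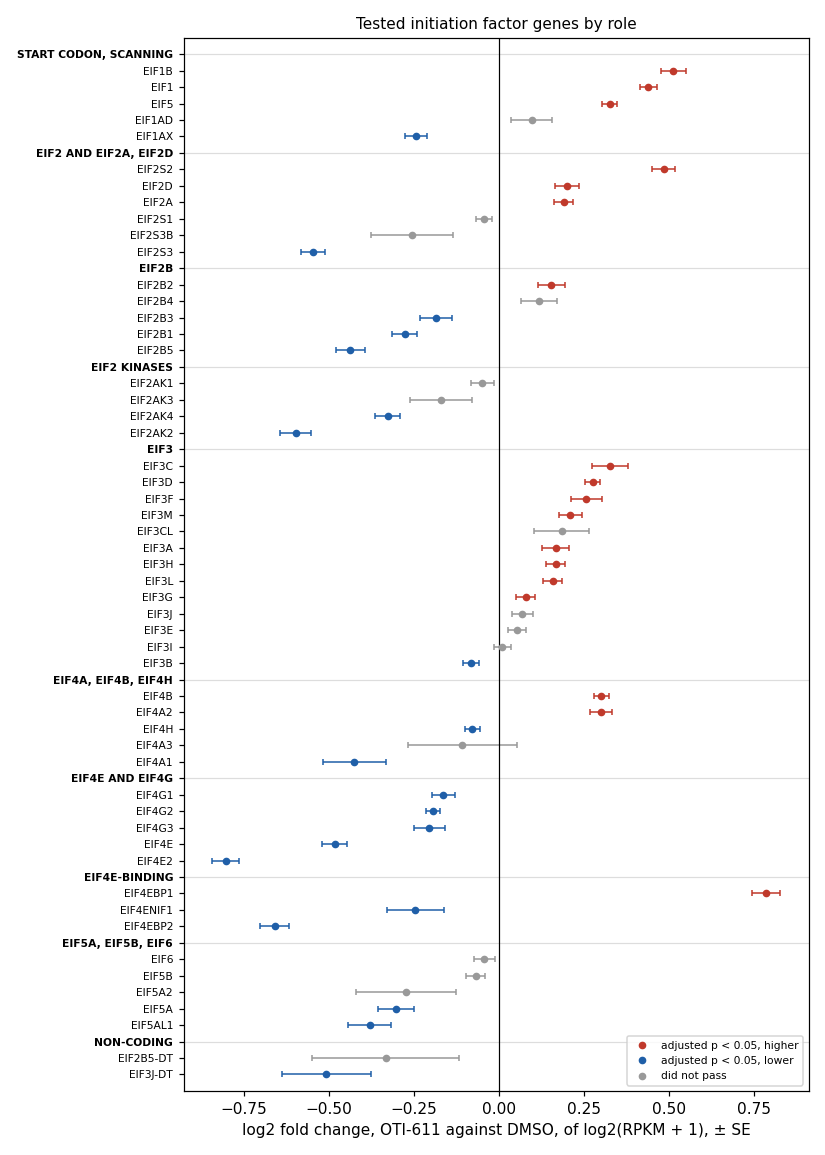
The horizontal axis gives the log2 fold change of log2(RPKM + 1) for OTI-611 against DMSO, with bars of ± 1 SE, for 53 of the 54 tested members in order of role (EIF1AY is not plotted). Red and blue points passed the test and grey points did not. Most eIF3 subunits lie to the right of 0, all 5 eIF4E and eIF4G genes lie to the left, and EIF4EBP1 and EIF4E2 lie at the ends.

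The promoters of the members were read from RefSeq on GRCh38.p14, as 250 bases before to 50 after a start site. Only the first entry listed for a gene was used, so its other start sites were not searched. An entry was found for 45 of the 54 tested members. The 9 without an entry were EIF2AK1, EIF2S2, EIF3A, EIF3CL, EIF3E, EIF3G, EIF3H, EIF3L and EIF4EBP1. Of these 9, 6 were higher, 0 lower and 3 did not pass, so the promoter counts leave out EIF4EBP1, the member with the highest rise. The E-box CACGTG, a palindrome bound by MYC and by other basic helix-loop-helix factors, was found in 10 of these 45 promoters (22.2%), against 10.5% of the 8820 promoters of tested genes and 7.43% of all 27305 promoters. Members with the E-box went in both directions. EIF1B, EIF3F and EIF4B were higher, EIF2B3, EIF2AK2, EIF4G1, EIF4E and EIF4H were lower, and EIF5A2 and EIF4A3 did not pass. Of the 35 members with a promoter and no E-box, 9 were higher and 16 lower. The counts with an E-box, without it and without an entry stand beside 27.8% higher and 37.3% lower of all genes tested. The windows of the 8 members that passed are shown because they set genes that rose beside genes that fell around the same 6 letters, which are in capitals. Each runs 5′ to 3′ on the strand of its gene.

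EIF1B (chr3:40309633-40309678, plus strand, 54 bases before the start site): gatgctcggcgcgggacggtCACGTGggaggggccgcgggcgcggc
EIF4B (chr12:53006414-53006459, plus strand, 22 bases before): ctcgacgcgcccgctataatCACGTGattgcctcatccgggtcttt
EIF3F (chr11:7987249-7987294, plus strand, 68 bases before): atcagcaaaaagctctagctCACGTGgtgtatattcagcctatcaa
EIF4E, first (chr4:98929333-98929378, minus strand, 225 bases before): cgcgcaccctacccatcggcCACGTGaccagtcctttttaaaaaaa
EIF4E, second (chr4:98929180-98929225, minus strand, 72 bases before): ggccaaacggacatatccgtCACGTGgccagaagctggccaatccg
EIF2AK2 (chr2:37157136-37157181, minus strand, 181 bases before): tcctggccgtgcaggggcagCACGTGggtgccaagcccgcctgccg
EIF4G1, first (chr3:184314442-184314487, plus strand, 144 bases before): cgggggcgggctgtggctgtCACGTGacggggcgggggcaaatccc
EIF4G1, second (chr3:184314519-184314564, plus strand, 67 bases before): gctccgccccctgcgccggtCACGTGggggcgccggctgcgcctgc
EIF2B3 (chr1:44986749-44986794, minus strand, 179 bases before): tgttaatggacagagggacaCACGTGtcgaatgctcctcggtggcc
EIF4H (chr7:74174137-74174182, plus strand, 199 bases before): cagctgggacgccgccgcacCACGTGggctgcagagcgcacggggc

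A match of these letters is a description of the window and not a bound site. The C/EBP-ATF element TGATGNAA, searched on both strands as were the other motifs, was in 0 of the 45 members' promoters, against 1.55% of the promoters of tested genes. Members without an entry, EIF4EBP1 and EIF2S2 among them, were not searched. The ER stress element, CCAAT and CCACG with 9 bases between them, was in 1 of the 45 members' promoters (2.22%), that of EIF2A, against 0.159% of the promoters of tested genes.

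Of the 6 genes that act in scanning and start codon selection, 3 were higher, 2 were lower and 1 did not pass (median log2 fold change 0.21). The shares over all genes tested were 27.8% higher and 37.3% lower. EIF1, EIF1B and EIF5 rose. EIF1 (ENSG00000173812, chromosome 17 from 41688885 to 41692668 in GENCODE v29 on GRCh38) encodes the factor that keeps the scanning ribosome open and guards against weak start codons, and had the highest mean of all members. Its levels were 327, 319.7 and 328 RPKM in DMSO 1, 2 and 3 and 449, 439 and 434 in OTI-611 1, 2 and 3. Every OTI-611 library lay above every DMSO library, and the mean rose from 325 ± 4.4 to 441 ± 7.6 RPKM (n = 3 each, SD), which is 0.44 ± 0.024 (SE) as log2 fold change (limma adjusted p = 4.55e-07). EIF1B (ENSG00000114784, chromosome 3 from 40309684 to 40312424), a close relative of EIF1, stood at 21, 19.6 and 20.4 RPKM with DMSO and at 30.1, 29.2 and 28.97 with OTI-611. The groups did not overlap, and the log2 fold change of 0.51 ± 0.036 (SE, limma adjusted p = 2.01e-06) was the second highest among the members. EIF1 held 94.0% to 94.2% of the summed RPKM of this pair in the DMSO libraries and 93.7% to 93.8% in the OTI-611 libraries, so both genes rose by similar ratios.

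EIF5 (ENSG00000100664, chromosome 14 from 103333544 to 103345025), which encodes the protein that makes eIF2 hydrolyse its GTP at the start codon, was at 119, 119 and 118 RPKM with DMSO and at 150.3, 149 and 148 with OTI-611. The 3 libraries of each group lay within 3 RPKM of each other, and the log2 fold change was 0.33 ± 0.022 (SE, limma adjusted p = 1.74e-06). EIF1AX, whose product eIF1A works with eIF1 on the scanning ribosome, fell from 27.4 ± 0.54 to 23.0 ± 0.56 RPKM (n = 3 each, SD), a log2 fold change of -0.24. EIF1AY, its Y-linked counterpart, is counted among the members that fell, and its level is not printed. EIF1AD, a relative named for its eIF1A-like domain, had 11.9 ± 0.97 and 12.8 ± 0.65 RPKM (n = 3 each, SD, limma adjusted p = 0.20), and its log2 fold change was 0.15 without DMSO 3 (limma adjusted p = 0.049) and 0.044 without DMSO 1 (limma adjusted p = 0.52). The RNA of eIF1 and eIF5 thus stood higher with OTI-611 while that of eIF1A stood lower.

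The 3 subunits of eIF2 went separate ways. EIF2S2 (ENSG00000125977, chromosome 20 from 34088298 to 34112332), the beta subunit, was at 117, 111 and 120.5 RPKM with DMSO and at 166, 164 and 158 with OTI-611. EIF2S3 (ENSG00000130741, chromosome X from 24054716 to 24077971), the gamma subunit that binds GTP and the initiator transfer RNA, was at 109, 107 and 109.9 RPKM with DMSO and at 77.1, 74.9 and 70.2 with OTI-611. For each of these genes the groups did not overlap, and the directions were opposite. EIF2S2 rose by a log2 fold change of 0.48 ± 0.035 (SE, limma adjusted p = 2.45e-06), and EIF2S3 fell, with a log2 fold change of -0.55 ± 0.035 (SE, limma adjusted p = 1.26e-06). EIF2S1, the alpha subunit that the eIF2 kinases phosphorylate, was at 100, 98.5 and 97.8 RPKM with DMSO and at 96.5, 96.4 and 94.7 with OTI-611. Its OTI-611 libraries lay just below its DMSO libraries, and its log2 fold change of -0.04 (limma adjusted p = 0.13) turned to 0.01 after the libraries were rescaled to a common median gene.

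Within a library, a ratio of genes does not depend on how that library was scaled. EIF2S2 over EIF2S3 was 1.07, 1.04 and 1.096 in the DMSO libraries and 2.15, 2.19 and 2.25 in the OTI-611 libraries. EIF2S2 over EIF2S1 was 1.17, 1.12 and 1.23 with DMSO and 1.72, 1.704 and 1.67 with OTI-611. EIF2S1 over EIF2S3 was 0.917, 0.922 and 0.890 with DMSO and 1.25, 1.29 and 1.35 with OTI-611. The beta subunit made up 35.0% to 36.7% of the RPKM of the 3 subunits in DMSO libraries and 48.85% to 48.95% in OTI-611 libraries. These ratios are descriptions, since an exact permutation test of 3 libraries against 3 cannot go below 0.10. Among the words of 50 bases in EIF2S2 transcripts, 21.3% also occur in the pseudogene EIF2S2P4, and EIF2S2P4 was itself called higher with a log2 fold change of 0.57. The sources used here do not say how reads were divided between such copies.

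Of the other genes grouped with eIF2, EIF2A rose from 48.5 ± 1.2 to 55.5 ± 0.064 RPKM (n = 3 each, SD) and EIF2D from 16.2 ± 0.43 to 18.8 ± 0.27. Both encode proteins that can bring transfer RNA to the ribosome without the eIF2 complex, and their log2 fold changes were 0.19 and 0.20. EIF2S3B, a copy of EIF2S3 with 26.8% of its 50-base words in EIF2S3, had 2.30 ± 0.35 and 1.76 ± 0.29 RPKM (n = 3 each, SD, limma adjusted p = 0.088), and its log2 fold change was -0.32 without DMSO 1 (limma adjusted p = 0.032) and -0.17 without DMSO 3 (limma adjusted p = 0.28).

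**Figure D2:**
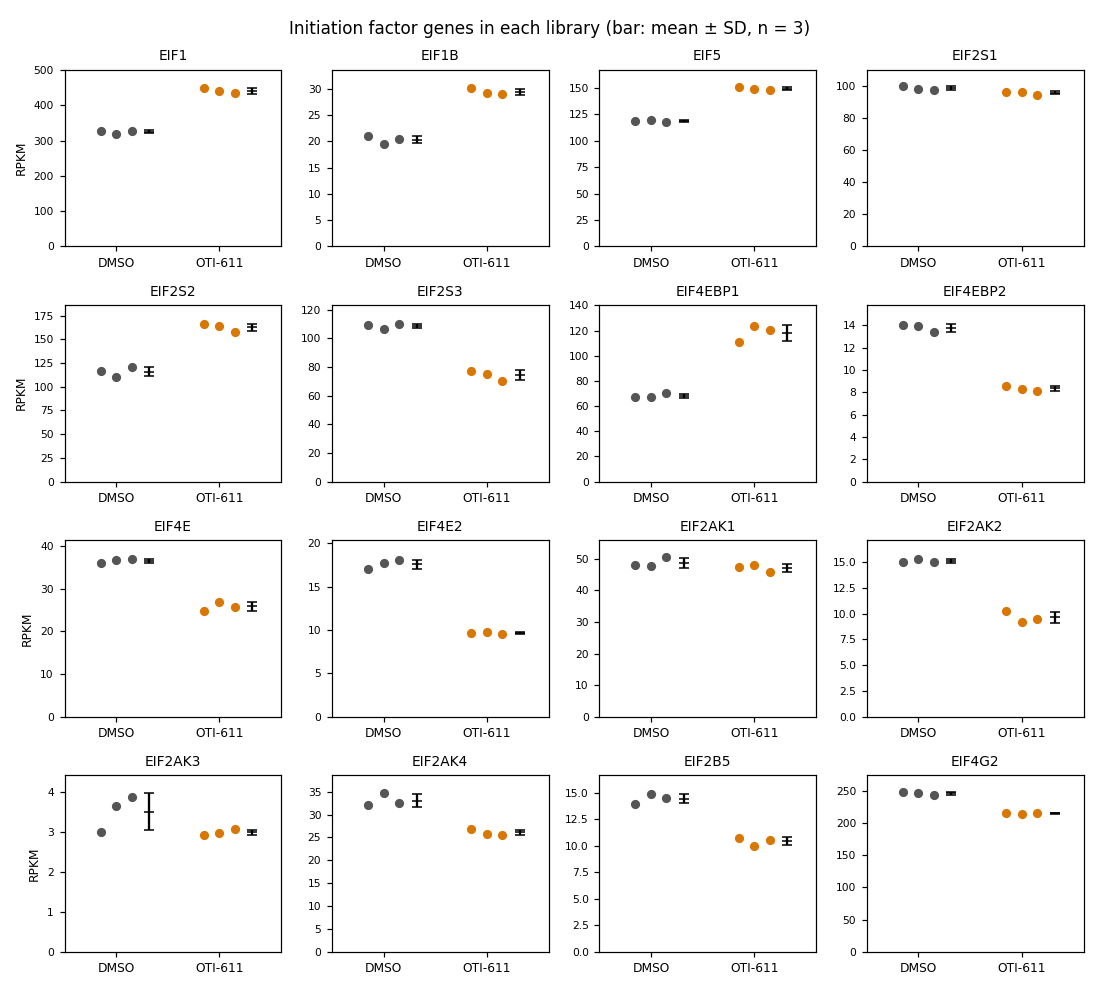
Each panel shows the RPKM of a gene in the 3 DMSO libraries (grey) and the 3 OTI-611 libraries (orange), with a bar for the mean ± SD, on an axis from 0. EIF1, EIF1B, EIF5, EIF2S2 and EIF4EBP1 lie higher with OTI-611, while EIF2S3, EIF4EBP2, EIF4E, EIF4E2, EIF2AK2, EIF2AK4, EIF2B5 and EIF4G2 lie lower and EIF2S1 and EIF2AK1 lie close together in both groups.

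Of the 5 subunits of eIF2B, the exchange factor of eIF2, 3 fell, 1 rose and 1 did not pass (median log2 fold change -0.19). Over all genes tested 37.3% were lower and 27.8% higher. EIF2B5 (ENSG00000145191, chromosome 3 from 184135038 to 184146112) encodes the catalytic epsilon subunit and was at 14, 14.9 and 14.5 RPKM with DMSO and at 10.75, 10.02 and 10.52 with OTI-611. All OTI-611 libraries lay below all DMSO libraries, a log2 fold change of -0.44 ± 0.044 (SE, limma adjusted p = 2.02e-05). EIF2B1, the alpha subunit and the most abundant of the 5 per length, was at 41, 42.2 and 43.0 RPKM with DMSO and at 36.2, 33.3 and 34.2 with OTI-611. It fell by 0.28 on the log2 scale, and EIF2B3, the gamma subunit that forms the catalytic part with EIF2B5, fell by 0.19. EIF2B2, the beta subunit, rose from 13.0 ± 0.33 to 14.6 ± 0.35 RPKM (n = 3 each, SD), a log2 fold change of 0.15. EIF2B4, the delta subunit, had a log2 fold change of 0.12 (limma adjusted p = 0.075), and this was 0.17 without DMSO 3 (limma adjusted p = 0.016) and 0.079 without DMSO 1 (limma adjusted p = 0.20). The catalytic subunits thus stood lower and the regulatory subunits differed among themselves.

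None of the 4 eIF2 kinases rose, 2 fell and 2 did not pass (median log2 fold change -0.25). With 37.3% of all genes tested lower and 27.8% higher, counts among 4 genes show nothing particular to the kinases. EIF2AK2 (ENSG00000055332, chromosome 2 from 37099210 to 37157065) encodes PKR, which is activated by double-stranded RNA and is itself induced by interferon. It was at 15, 15.3 and 15.1 RPKM with DMSO and at 10.3, 9.18 and 9.53 with OTI-611, a log2 fold change of -0.60 ± 0.046 (SE, limma adjusted p = 4.06e-06). EIF2AK4 (ENSG00000128829, chromosome 15 from 39934146 to 40035591), encoding GCN2, the kinase that senses uncharged transfer RNA, was at 32, 34.7 and 32.4 RPKM with DMSO and at 26.8, 25.9 and 25.6 with OTI-611. Its groups did not overlap either, and its log2 fold change was -0.33 ± 0.038 (SE, limma adjusted p = 5.38e-05).

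EIF2AK1, encoding HRI, the kinase controlled by heme and mitochondrial stress, had the highest level of the 4 kinases per length. Its values of 48, 47.6 and 50.6 RPKM with DMSO and 47.4, 48.1 and 45.7 with OTI-611 overlapped, and its log2 fold change was -0.05 (limma adjusted p = 0.23), or 0.01 after the libraries were rescaled to a common median gene. EIF2AK3 encodes PERK, the kinase of the endoplasmic reticulum, and had the lowest level, with 3, 3.66 and 3.88 RPKM under DMSO and 2.94, 2.98 and 3.07 under OTI-611. The groups overlapped through DMSO 1, which holds whole numbers only. The log2 fold change was -0.17 over all libraries (limma adjusted p = 0.12) and -0.26 when DMSO 1 was left out (limma adjusted p = 0.00729), so this call depends on that library. It was -0.11 when DMSO 3 was left out (limma adjusted p = 0.35). EIF2AK1 made up 47.0% to 49.6% of the summed RPKM of the 4 kinases with DMSO and 54.2% to 55.9% with OTI-611, while EIF2AK2 made up 14.8% to 15.3% and then 10.7% to 11.7%.

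Of the 13 tested genes of eIF3, the large scaffold on the small ribosomal subunit, 8 rose, 1 fell and 4 did not pass (median log2 fold change 0.17). Their log2 fold changes lay between -0.08 and 0.33. These counts stand beside 27.8% higher and 37.3% lower of all genes tested. EIF3D, whose product can bind the cap of selected messages, had the highest level per length of the subunits. It was at 173, 175 and 175 RPKM with DMSO and at 208, 211 and 214 with OTI-611. The groups lay over 30 RPKM apart, with a log2 fold change of 0.28 ± 0.022 (SE, limma adjusted p = 5.52e-06). EIF3F rose by a log2 fold change of 0.26, EIF3M by 0.21, EIF3A by 0.17, EIF3H by 0.17, EIF3L by 0.16 and EIF3G by 0.08. EIF3A encodes the largest subunit, and EIF3F, EIF3H and EIF3M belong with it to the octamer core of the complex. EIF3B, which holds together the module of EIF3G and EIF3I, was the subunit that fell, from 144 ± 3.0 to 136 ± 0.77 RPKM (n = 3 each, SD). The calls of EIF3B and EIF3G depended on single libraries. Without DMSO 2 their limma adjusted p was 0.061 and 0.13, and after rescaling to a common median gene EIF3B had a log2 fold change of -0.03 (limma adjusted p = 0.55). EIF3G also missed the threshold without DMSO 3, without OTI-611 2 and without OTI-611 3, with limma adjusted p of 0.069, 0.10 and 0.071.

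EIF3C (ENSG00000184110, chromosome 16 from 28688558 to 28735730) was listed at 13, 13.4 and 11.9 RPKM with DMSO and at 15.3, 16.7 and 16.8 with OTI-611, a log2 fold change of 0.33 ± 0.054 (SE, limma adjusted p = 5.13e-04). It cannot be read alone, since 97.2% of the 50-base words of its copy EIF3CL also occur in EIF3C. EIF3CL had 4.47 ± 0.46 and 5.21 ± 0.40 RPKM (n = 3 each, SD, limma adjusted p = 0.072), and its log2 fold change was 0.24 without DMSO 3 (limma adjusted p = 0.034) and 0.12 without DMSO 1 (limma adjusted p = 0.17). The sum of the pair was 17.0, 17.9 and 16.8 RPKM with DMSO and 20.5, 22.3 and 21.7 with OTI-611, so the summed values did not overlap. Leaving out both genes, 7 of 11 eIF3 genes rose and 1 fell (median 0.16). EIF3E, EIF3I and EIF3J did not pass, with log2 fold changes of 0.05, 0.01 and 0.07, and EIF3E, EIF3J and EIF3CL were higher after rescaling to a common median gene and after quantile normalization. That of EIF3J was 0.10 without DMSO 3 (limma adjusted p = 0.019) and 0.051 without DMSO 2 (limma adjusted p = 0.25). EIF3K was listed at 0, 0.0245 and 0 RPKM with DMSO and at 0.0202, 0.0806 and 0.0598 with OTI-611, although it encodes a subunit of the same complex. Exons of other genes cover 0% of its exon bases, and the cause of its low listing was not tested.

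The helicase genes differed from each other. EIF4A2 (ENSG00000156976, chromosome 3 from 186783205 to 186789900), one of a pair of near-identical cytoplasmic helicases that unwind the leader of the messenger RNA, was at 139, 133 and 142 RPKM with DMSO and at 175, 164 and 169.6 with OTI-611. The libraries separated, and the log2 fold change was 0.30 ± 0.033 (SE, limma adjusted p = 3.95e-05). EIF4B (ENSG00000063046, chromosome 12 from 53006158 to 53042209), encoding the RNA-binding partner that stimulates the helicase, was at 175, 173 and 175 RPKM with DMSO and at 217, 216 and 211 with OTI-611. It rose by a log2 fold change of 0.30 ± 0.022 (SE, limma adjusted p = 3.13e-06). EIF4H, a smaller partner related to EIF4B, fell from 146 ± 0.87 to 138 ± 1.7 RPKM (n = 3 each, SD), a log2 fold change of -0.08 that was -0.02 (limma adjusted p = 0.66) after rescaling to a common median gene.

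EIF4A1, the other cytoplasmic helicase, was listed at 6, 6.52 and 6.35 RPKM with DMSO and at 4.11, 5.31 and 3.95 with OTI-611, a log2 fold change of -0.43 (limma adjusted p = 0.0029). With the decimals of all libraries dropped its limma adjusted p was 0.051. Exons of other genes cover 48.6% of its exon bases, and the locus with the largest overlap is listed at 0.015 RPKM. SENP3-EIF4A1, which holds 24.9% of the 50-base words of EIF4A1, is listed at 0.053 RPKM. The cause of the low listing of EIF4A1 was not tested. EIF4A1P10, a pseudogene of it, was listed at a mean of 15.9 RPKM over the 6 libraries, above the 5.37 RPKM of EIF4A1 itself, and was also lower with a log2 fold change of -0.25. EIF4A3, the helicase of the exon junction complex, had 1.59 ± 0.53 and 1.37 ± 0.074 RPKM (n = 3 each, SD). It did not pass with all libraries (limma adjusted p = 0.58), and its log2 fold change was -0.28 without DMSO 1 (limma adjusted p = 0.022) and 0.017 without DMSO 3 (limma adjusted p = 0.94). Cells are known to use it throughout, exons of other genes cover 0% of its exon bases, and the cause of its low listing was not tested either.

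All 5 tested genes for the cap-binding proteins and their scaffolds fell (median log2 fold change -0.20), beside 37.3% of all genes tested. EIF4E2 (ENSG00000135930, chromosome 2 from 232550052 to 232583644) encodes 4EHP, a relative of eIF4E that binds the cap without recruiting eIF4G and represses messages. It had the largest fall of the members, from 17, 17.7 and 18.0 RPKM with DMSO to 9.66, 9.77 and 9.48 with OTI-611. The groups were far apart, with a log2 fold change of -0.80 ± 0.039 (SE, limma adjusted p = 2.67e-07) and a ratio of 0.539 to the mean of DMSO 2 and DMSO 3. EIF4E (ENSG00000151247, chromosome 4 from 98871684 to 98930637), the cap-binding protein itself and a member with 2 E-boxes shown above, was at 36, 36.8 and 36.9 RPKM with DMSO and at 24.8, 27.0 and 25.8 with OTI-611. Its log2 fold change was -0.48 ± 0.036 (SE, limma adjusted p = 3.08e-06), and the pseudogene EIF4EP2 was lower as well, with a log2 fold change of -0.53. EIF4E over EIF4E2 went from 2.12, 2.08 and 2.05 in the DMSO libraries to 2.57, 2.76 and 2.72 in the OTI-611 libraries.

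The scaffolds had smaller log2 fold changes than EIF4E and EIF4E2. EIF4G2, which lacks the eIF4E-binding part of its relatives and serves cap-independent initiation, had the highest level of this role per length. It was at 247, 246 and 243 RPKM with DMSO and at 215, 214 and 215 with OTI-611, with no overlap and a log2 fold change of -0.19 ± 0.021 (SE, limma adjusted p = 3.31e-05). EIF4G1, the main scaffold, fell from 183 ± 3.9 to 163 ± 6.7 RPKM (n = 3 each, SD), a log2 fold change of -0.16 that was -0.11 (limma adjusted p = 0.063) after rescaling to a common median gene. EIF4G3 fell from 10.1 ± 0.13 to 8.67 ± 0.36 RPKM (n = 3 each, SD). The 3 scaffolds kept nearly the same shares of their sum, EIF4G2 holding 55.5% to 56.4% with DMSO and 54.8% to 56.6% with OTI-611. EIF4E3, a further relative of eIF4E, lay under the minimum for testing.

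The genes of the eIF4E-binding proteins moved apart. EIF4EBP1 (ENSG00000187840, chromosome 8 from 38030341 to 38060365), encoding the main mTORC1-controlled repressor of eIF4E, had the highest rise of the members. It was at 67, 66.8 and 70.2 RPKM with DMSO and at 111, 124 and 120.0 with OTI-611. The lowest OTI-611 library lay over 40 RPKM above the highest DMSO library, and the mean went from 68.0 ± 1.9 to 118 ± 6.6 RPKM (n = 3 each, SD). The log2 fold change was 0.79 ± 0.041 (SE, limma adjusted p = 3.87e-07), and the ratio to the mean of DMSO 2 and DMSO 3 was 1.72. EIF4EBP2 (ENSG00000148730, chromosome 10 from 70404379 to 70428618), encoding a second repressor of the same kind, was at 14, 13.9 and 13.4 RPKM with DMSO and at 8.60, 8.33 and 8.14 with OTI-611. It fell, with a log2 fold change of -0.66 ± 0.042 (SE, limma adjusted p = 1.25e-06) and a ratio of 0.611.

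EIF4EBP3, the third repressor, was listed at 0, 0.282 and 0.133 RPKM with DMSO and at 0.0773, 0.116 and 0.153 with OTI-611, under the minimum for testing. EIF4EBP1 made up 82.4% to 83.9% of the RPKM of the 3 repressor genes in DMSO libraries and 92.7% to 93.6% in OTI-611 libraries. EIF4EBP1 over EIF4EBP2 was 4.79, 4.79 and 5.24 in the DMSO libraries and 12.9, 14.8 and 14.8 in the OTI-611 libraries. EIF4EBP1 over EIF4E, the repressor beside its partner, was 1.86, 1.82 and 1.902 with DMSO and 4.47, 4.58 and 4.64 with OTI-611. In each of these ratios the OTI-611 libraries lay above the DMSO libraries. EIF4ENIF1, which carries eIF4E into the nucleus, fell from 4.63 ± 0.58 to 3.73 ± 0.057 RPKM (n = 3 each, SD, limma adjusted p = 0.028). It did not pass when DMSO 2, DMSO 3 or any OTI-611 library was left out, with limma adjusted p between 0.058 and 0.11, nor after quantile normalization (limma adjusted p = 0.082) or with no filter on low values (limma adjusted p = 0.10).

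**Figure D3:**
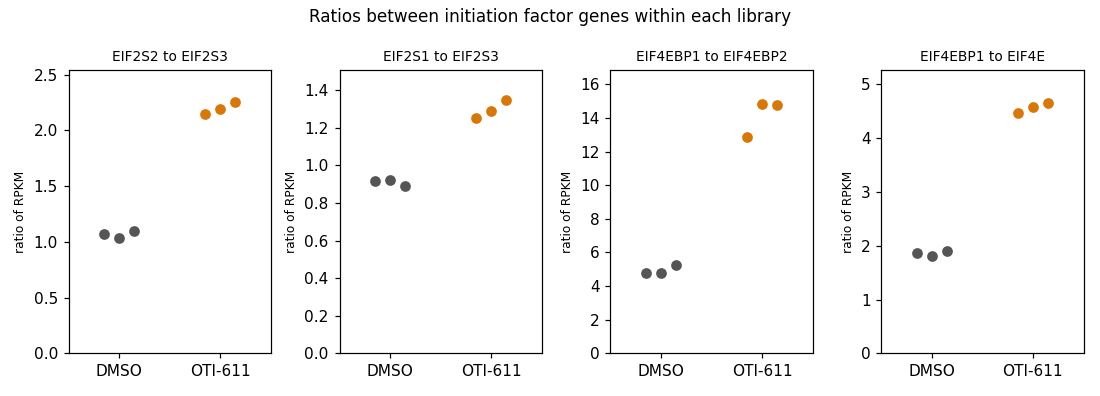
Each panel plots the ratio of the RPKM of a pair of genes within each library, on an axis from 0, with DMSO libraries in grey and OTI-611 libraries in orange. EIF2S2 to EIF2S3 goes from 1.04 to 1.096 with DMSO to 2.15 to 2.25 with OTI-611, and EIF4EBP1 to EIF4EBP2 from 4.79 to 5.24 to 12.9 to 14.8.

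None of the 5 genes of eIF5A, eIF5B and eIF6 rose, 2 fell and 3 did not pass (median log2 fold change -0.27). With 27.8% of all genes tested higher and 37.3% lower, these counts among 5 genes show nothing particular to them. EIF6, which keeps the large ribosomal subunit from joining too early, had the highest level per length of this role. Its values were 91, 93.1 and 90.3 RPKM with DMSO and 92.1, 86.2 and 88.1 with OTI-611, which overlap, and its log2 fold change of -0.04 (limma adjusted p = 0.23) was 0.01 after rescaling to a common median gene. EIF5A, the hypusine-bearing factor that helps ribosomes through difficult peptide bonds, was at 23, 25.87 and 25.98 RPKM with DMSO and at 19.27, 19.71 and 21.03 with OTI-611, a fall of which the log2 fold change was -0.30 (limma adjusted p = 7.48e-04). Its copy EIF5AL1 had a log2 fold change of -0.38, and the sum of the pair was 30, 33.6 and 33.2 RPKM with DMSO and 24.3, 25.0 and 26.8 with OTI-611. EIF5AP4, a pseudogene of EIF5A, was listed at a mean of 30.8 RPKM, above the 22.5 RPKM of EIF5A over the same 6 libraries, and was lower by a log2 fold change of -0.31. EIF5A2, a second eIF5A gene, had 1.32 ± 0.28 and 0.916 ± 0.18 RPKM (n = 3 each, SD, limma adjusted p = 0.13), and its log2 fold change was -0.38 without DMSO 1 (limma adjusted p = 0.015) and -0.21 without OTI-611 3 (limma adjusted p = 0.35). EIF5B, the GTPase that joins the subunits, had a log2 fold change of -0.07 (limma adjusted p = 0.058).

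Among the non-coding transcripts that start beside member genes, EIF3J-DT (ENSG00000179523, chromosome 15 from 44527257 to 44536923) fell from 2, 3.02 and 2.90 RPKM with DMSO to 1.75, 1.40 and 1.47 with OTI-611. The groups did not overlap, and the log2 fold change was -0.51 ± 0.13 (SE, limma adjusted p = 0.0076), or the same value (limma adjusted p = 0.056) when no filter on low values was used. EIF3J itself had a log2 fold change of 0.07. EIF2B5-DT did not pass, with a log2 fold change of -0.33 (limma adjusted p = 0.20) that was -0.15 without DMSO 3, -0.51 without OTI-611 1 and -0.86 with the decimals of all libraries dropped. An estimated 7.4 to 25.4 reads lay behind its value in each library with a depth estimate.

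Sequence shared with other genes bears on 10 of the tested members, in which at least 20% of the 50-base words also occur elsewhere, and 8 of these 10 passed the test. They are EIF3CL, EIF3C, EIF3L, EIF4A1, EIF4B, EIF2S3B, EIF2S2, EIF4E2, EIF2B2 and EIF5A. In EIF3L, EIF2B2 and EIF4E2 the gene with the most shared words was a locus listed at a mean of 0.155, 0.165 and 0.292 RPKM. EIF4EBP1 and EIF1B had 0% of such words, and EIF2AK2 4.4%. The rule had left out 8 pseudogenes with a mean of at least 1, and 5 of them passed the test, each in the direction of its parent gene. Whether reads of one were counted for the other was not tested. Passing was common in the whole table, with 27.8% of all genes tested higher and 37.3% lower. The counts of 8 of 10 and 5 of 8 therefore show nothing particular to shared sequence.

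The genes around the members were taken from lists of the pathway, in which 20 of 53 tested genes were higher, 19 lower and 14 did not pass (median log2 fold change 0.05). These counts, and those of each list below, stand beside the 27.8% higher and 37.3% lower of all genes tested. Targets of phosphorylated eIF2 had the largest median log2 fold change of these lists. Of the 7 tested, 5 rose and 2 fell (median 1.65). DDIT3, the stress factor CHOP, stood at 17, 14.7 and 19.6 RPKM with DMSO and at 175, 169 and 163 with OTI-611, a log2 fold change of 3.24. TRIB3, a pseudokinase induced by ATF4 and CHOP, had 2.52, the asparagine synthetase ASNS 1.84, the transcription factor ATF3 1.65 and CHAC1, a glutathione-degrading enzyme, 0.79. The 2 that fell were ATF4 and ATF5. ATF4 was at 280, 276 and 292 RPKM with DMSO and at 246, 253 and 252 with OTI-611, and ATF5 at 7, 7.81 and 7.43 and at 4.26, 3.83 and 3.48. Their log2 fold changes were -0.17 and -0.79.

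In the list of the eIF2 phosphatase and the partners of the kinases, 5 of 11 rose, 4 fell and 2 did not pass (median 0.06). PPP1R15A (GADD34), the inducible subunit that directs protein phosphatase 1 to eIF2, was at 29, 32.3 and 31.99 RPKM with DMSO and at 130.3, 150.1 and 158 with OTI-611. Every OTI-611 library was over 90 RPKM above every DMSO library, with a log2 fold change of 2.19 ± 0.068 (SE, limma adjusted p = 2.07e-08). PPP1R15B, the constitutive subunit of the same kind, rose by a log2 fold change of 0.46, DNAJC3, an inhibitor of PKR and PERK, by 0.66 and the adaptor NCK1 by 0.48. The catalytic subunits of the phosphatase differed, with 0.33 for PPP1CB, -0.22 for PPP1CC and -0.15 for PPP1CA. PPP1CA did not pass after rescaling to a common median gene (limma adjusted p = 0.11). GCN1, the activator of GCN2, fell by 0.21 and IMPACT, which competes with GCN2 for GCN1, by 0.20. TARBP2 and PRKRA, an inhibitor and an activator of PKR, did not pass, with log2 fold changes of -0.15 and 0.06. TARBP2 was at -0.23 without OTI-611 3 (limma adjusted p = 0.0072) and at -0.07 without OTI-611 2 (limma adjusted p = 0.34).

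Of the 14 genes in the list of mTORC1 and MNK inputs to eIF4E, 5 rose, 7 fell and 2 did not pass (median -0.11). The 3 with the smallest p were MKNK2, AKT1S1 and TSC1. MKNK2 encodes a kinase that phosphorylates eIF4E and was at 21, 21.7 and 21.8 RPKM with DMSO and at 50.4, 52.3 and 55.1 with OTI-611, a log2 fold change of 1.25 ± 0.037 (SE, limma adjusted p = 1.81e-08). AKT1S1 (PRAS40), an inhibitory partner of mTORC1, fell by 0.61, and TSC1, a brake on mTORC1, rose by a log2 fold change of 0.64. The list also holds DDIT4, MKNK1 and RPTOR, described here after their values were seen. DDIT4 (REDD1), a stress-induced inhibitor of mTORC1, was at 78, 54.8 and 91.8 RPKM with DMSO and at 232, 188 and 245 with OTI-611, a log2 fold change of 1.57 ± 0.16 (SE, limma adjusted p = 2.77e-05) and the highest of the list. MKNK1, the other eIF4E kinase gene, was at 7, 7.03 and 7.73 RPKM with DMSO and at 5.22, 4.88 and 3.92 with OTI-611, a log2 fold change of -0.55 ± 0.089 (SE, limma adjusted p = 4.77e-04). RPTOR had the largest fall of the list, with a log2 fold change of -0.66 ± 0.051 (SE, limma adjusted p = 3.70e-06). The eIF4E kinase genes thus went opposite ways, and of the mTORC1 inhibitors named here TSC1 and DDIT4 rose while AKT1S1 fell.

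In the list of poly(A)-binding proteins and their partners, 2 of 5 rose and 1 fell (median 0.12), and the named genes were PABPC1 (0.23), PAIP1 (0.17) and the inhibitor PAIP2 (-0.24). Of 7 tested genes among other initiation and recycling factors none rose and 4 fell (median -0.21). Those with the smallest p were the scanning helicase DHX29 (-0.58), the nuclear cap-binding protein NCBP1 (-0.49) and the ribosome-recycling ATPase ABCE1 (-0.21). Of 7 tested elongation and termination factors 3 rose and 1 fell (median 0.05). EEF2, the translocase, had a log2 fold change of 0.34, EEF1A1 0.23 and EEF1A2, the second gene for the same elongation factor, -0.41. EEF1A1 did not pass when no filter on low values was used (limma adjusted p = 0.0935). The enzymes that place hypusine on eIF5A, DHPS and DOHH, did not pass, with log2 fold changes of -0.18 and 0.14. Each passed with 1 library left out, DHPS without DMSO 1 (-0.35, limma adjusted p = 0.017) and DOHH without OTI-611 1 (0.22, limma adjusted p = 0.027). Without DMSO 3 DHPS was at -0.07 (limma adjusted p = 0.74), and without OTI-611 3 DOHH was at 0.038 (limma adjusted p = 0.61).

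**Figure D4:**
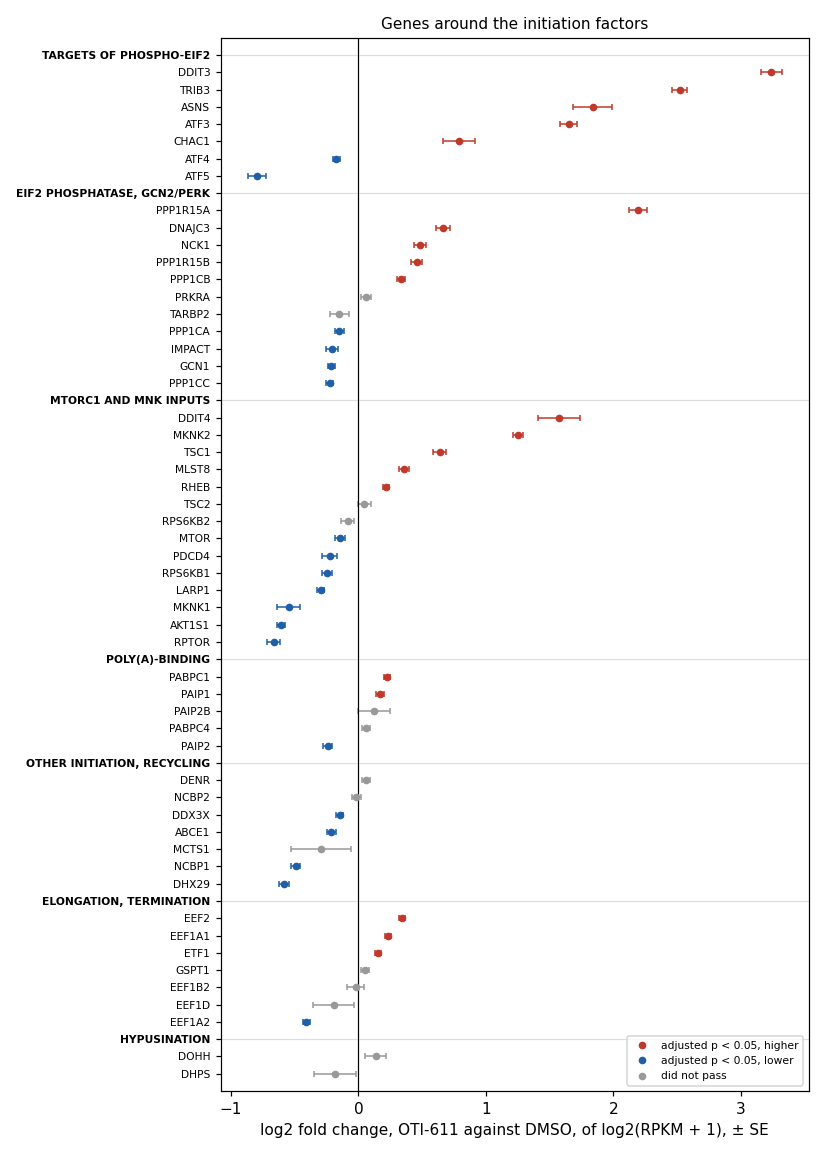
The horizontal axis gives the log2 fold change of log2(RPKM + 1), OTI-611 against DMSO, with bars of ± 1 SE, for the 53 tested genes around the members by list. Red and blue points passed the test and grey points did not. DDIT3, TRIB3 and PPP1R15A lie farthest to the right at 3.24, 2.52 and 2.19, while ATF4 and ATF5 lie left of 0.

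By sums of RPKM within a library, the start codon and scanning genes held 511 to 519.6 in the DMSO libraries and 655 to 673 in the OTI-611 libraries. The eIF3 genes held 889 to 901 and 972 to 981, and the eIF4E and eIF4G genes 489 to 499 and 415 to 428. The kinases held 98.0 to 102 and 83.9 to 87.4. In each of these sums the groups did not overlap, and most of a sum comes from its most abundant genes. For the eIF2 genes, whose subunits moved in opposite directions, the sums were 381 to 397 with DMSO and 399 to 415 with OTI-611.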

How the data were processed

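Total RNA of DU145 cells was extracted, its messenger RNA amplified as cDNA by Geo-seq and made into libraries with the TruePrep kit, per the labels' protocols. TopHat2 2.0.9, HTSeq, Cufflinks 2.1.1, FastQC, CASAVA 1.7 and the build mm10 are named, with no roles, per the submitters' processing notes. That build is of mouse, whereas all 32692 gene IDs are human, so the build behind the values is not established. The authors deposited 5 columns taken here as RPKM (FPKM would look alike) and the column DMSO 1 as whole numbers, treated as a score with its decimals dropped. No column was left unused (0 of them).

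Genes with a mean of at least 1 were compared with limma 3.58.1 in R 4.3.3 on log2(value + 1), with a mean-variance trend, two-sided, with Benjamini-Hochberg adjustment over the 11978 genes tested and a threshold of 0.05. Fold changes are on that scale, on which low genes appear to change less than they do. The fit was tested on simulated data. Depth was estimated from the steps between low values, of which 66.9% to 67.6% were whole numbers of reads within 0.05. DMSO 1 gave no estimate. The deposited table held no reads, so intervals from counts are not given. Positions, exon overlap and shared words come from GENCODE v29, in which all 59 members were found, and promoters from RefSeq on GRCh38.p14.

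Samples were grouped by their labels. The members, roles, lists and motifs were chosen with earlier results of these data known. EIF4EBP1, EIF4EBP2 and EIF4EBP3 were kept although their symbols end in P and a digit, because the rule names them. Values in each library are given for the 8 highest rises and 8 largest falls among members that passed, the 4 kinases, the 3 EIF4EBP genes and the member of highest mean in each role. Of the pathway lists, log2 fold changes are given for up to 3 genes each by smallest p and for all genes of the phosphatase and target lists. DDIT4, MKNK1 and RPTOR were added after their values were seen. Per-library values of other genes were chosen after they were seen. EIF1AY, on the Y chromosome, is counted without its level.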

Additional observations from a re-analysis of the deposited data

How the results depend on the processing

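Under the 14 other settings tried, 17 to 23 members were higher and 18 to 25 lower, and 19 to 24 pathway genes were higher and 16 to 21 lower. Counts over all genes varied as well, from 2700 to 4085 higher and from 3179 to 5081 lower, with 7771 to 31788 genes tested. With 1 library left out at a time, 17 to 21 members were higher and 19 to 25 lower. Of the 38 members that passed (EIF1AY not counted), 31 passed in the same direction under every setting in which they were tested, and the exceptions were EIF3B, EIF3G, EIF3J-DT, EIF4A1, EIF4ENIF1, EIF4G1 and EIF4H. Without DMSO 1, which holds whole numbers only, 18 members were higher and 25 lower, beside 3145 and 5081 of all 11978 genes tested. The sign turned only in genes that had not passed. After rescaling to a common median gene the log2 fold change was 0.0072 for EIF2AK1, 0.013 for EIF2S1 and 0.013 for EIF6. With 1 library left out, EIF3I ranged from -0.0012 to 0.021 and was -0.000985 without DMSO 1, and EIF4A3 ranged from -0.28 to 0.017. Those rescaled values follow from the median of all genes, which moved from -0.054 to 0.0016, and the cause of the others was not tested. The labels give both groups replicate numbers 1 to 3, but same-numbered libraries did not deviate together (correlations of 0.019, 0.00041 and -0.058), so the numbers were not taken as pairs. With the replicate number as a block, 18 members were higher and 21 lower, 20 pathway genes higher and 20 lower, and TARBP2 was the one gene around the members that newly passed. Depth limits EIF3K and EIF4EBP3, for which an estimated 8.4 reads or fewer lay behind the value in each of the 5 libraries with a depth estimate. It also limits EIF2B5-DT, which was tested, with an estimated 7.4 to 25.4 reads in these libraries.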
